A study of Gallus gallus with 4 samples.

Results

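Feather keratin genes and the cysteine-rich gene KRTAP10-4 were followed in embryonic chicken feathers, in 4 droplet libraries that each stand for 1 group. Of the 16878 genes in the deposited tables, 10 entries carry the symbols concerned, namely 1 entry for F-KER (ENSGALG00000028706), 1 for KRTAP10-4 (ENSGALG00000000341), 6 for FK21 and 2 for FK27. All 10 are described here by their Ensembl identifier. The embryos were white leghorn chickens, whose midline back feathers were plucked for libraries at 12, 13 and 14 days of incubation (Hamburger and Hamilton stages 38, 39 and 40); a further library at 12 days came from back skin with its feathers in place. Both 12-day libraries hold whole cells released with Pronase, whereas those of days 13 and 14 hold nuclei, so age and preparation cannot be told apart between day 12 and the later days. The labels name no treatment or mutation. The entries were chosen with their levels in these libraries known and every group is 1 library, so all differences are descriptions with no test.

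Feather keratins, also called corneous beta-proteins, are small proteins that assemble into the stiff filaments of barbs, barbules and rachis, and they belong to a large avian family of clustered, very similar gene copies. They are structurally unrelated to the alpha-keratins that form the intermediate filaments of all epithelia. Keratin-associated proteins of mammalian hair are cysteine-rich proteins that cross-link keratin filaments, and human KRTAP10-4 is one of them. For chicken, the RefSeq gene table gives KRTAP10-4 as a synonym of JAC1, also named EDMPN1, which lies next to EDMPN2. Both belong to the avian epidermal differentiation complex, the gene cluster whose products build the cornified layer. F-KER was also found in that table, whereas FK21 and FK27 were not. FK21 and FK27 are each spread over several entries under 1 symbol, and how reads shared by similar copies were counted is not given in the sources used here, so the split among these entries is uncertain.

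Transcripts were counted as UMIs (unique molecular identifiers, tags by which PCR copies are counted once). Levels are a gene's UMIs per 1000000 UMIs other than globin and mitochondrial ones (CPM), summed over barcodes. A barcode stayed in if it had 500 UMIs or more, 300 genes or more and no more than 10% mitochondrial UMIs. Globin made up 0.505%, 45.2% and 43.7% of all UMIs in plucked feathers at days 12, 13 and 14, and 1.43% in feathers in skin. Kept barcodes were therefore split at 50% globin UMIs. Those below gave 6089, 13038 and 13542 barcodes at days 12, 13 and 14 and 5257 in skin, and those above, 119, 6419 and 5893 barcodes and 154 in skin. Globin marks red blood cells, which should lack feather keratin, so barcodes above 50% were taken as the background of free RNA. Barcodes at or below 50% still had a median of 24.9% globin at day 13 and 16.3% at day 14. Clusters later named erythroid-like held 8057 and 9289 kept barcodes at days 13 and 14, more than those above 50%. The class at or below 50% therefore includes erythroid-like barcodes. Median UMIs in the barcodes below 50% globin were 8670 at day 12, 1318 at day 13, 1506 at day 14 and 6848 in skin. Between 12 and 110 kept barcodes were shared by any 2 libraries, at most 0.566% of either. The W-linked female RNA HINTW gave 176270 UMIs in plucked feathers at day 12 and 1 UMI in feathers in skin, so embryo sex and preparation cannot be told apart between them.

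F-KER was measured in all 4 libraries and was the most abundant member in each. In barcodes with at most 50% globin it gave 2442 UMIs at day 12, 24912 at day 13 and 129356 at day 14 in plucked feathers, and 111 UMIs in feathers in skin. As levels these are 47.5 CPM at day 12 (95% Poisson interval 45.6 to 49.4), 971 CPM at day 13 (959 to 983), 4726 CPM at day 14 (4701 to 4752) and 2.76 CPM in skin (2.27 to 3.32). All such intervals cover counting error only. The order of the 4 libraries was therefore day 14, day 13, day 12 plucked, day 12 in skin, with no overlap of neighbouring intervals.

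KRTAP10-4 was close to 0 at day 12 and approached the level of F-KER at day 14. It gave 11, 2227 and 106111 UMIs at days 12, 13 and 14, and 9 UMIs in skin. These correspond to 0.214 CPM at day 12 (0.107 to 0.383), 86.8 CPM at day 13 (83.2 to 90.5), 3877 CPM at day 14 (3854 to 3901) and 0.224 CPM in skin (0.102 to 0.425). At day 12, 4 of the 11 UMIs in plucked feathers and 4 of the 9 UMIs in skin each came from 1 barcode, and the intervals of these libraries overlap. The number of F-KER UMIs per KRTAP10-4 UMI was 222 at day 12, 11.2 at day 13 and 1.22 at day 14 in plucked feathers, and 12.3 in skin at day 12, where it rests on 111 and 9 UMIs. The ratio of day 14 was the lowest of the 4, while at day 12 it rested on few KRTAP10-4 UMIs and differed between the libraries.

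The FK21 and FK27 entries were low, and nearly all of their UMIs came from day 14. FK21 ENSGALG00000050142 gave 2851 UMIs at day 14, against 82 at day 13, which is 104 CPM against 3.20 CPM. FK21 ENSGALG00000051333 gave 1179 UMIs at day 14, against 60 at day 13, or 43.1 CPM against 2.34 CPM. FK27 ENSGALG00000048375 gave 411 and 28 UMIs at days 14 and 13 (15.0 and 1.09 CPM). These 3 entries were the most abundant of the 8, and each gave 0 UMIs in both 12-day libraries. FK27 ENSGALG00000054921 gave 277 UMIs at day 14, against 16 at day 13 (10.1 and 0.624 CPM), and 0 at day 12. FK21 ENSGALG00000050610 gave 26 UMIs at day 14, against 7 at day 13, and its 2 UMIs in plucked feathers at day 12 were the only UMIs of any FK21 or FK27 entry in either 12-day library. FK21 ENSGALG00000052044 gave 25 UMIs at day 14, against 0 at day 13. That is 7.81-fold higher at day 14 when day 13 is set to the floor of 3 UMIs per library. The lower limit by counting error was 4.11-fold. FK21 ENSGALG00000052078 and ENSGALG00000048558 gave 0 UMIs in every library, where 3 UMIs would be 0.0583 CPM at day 12, 0.117 at day 13, 0.110 at day 14 and 0.0746 in skin. Together the 10 entries made up 0.00477% of UMIs other than globin and mitochondrial ones at day 12, 0.107% at day 13 and 0.878% at day 14, and 0.000298% in skin. F-KER's part of that sum was 99.5% at day 12, 91.1% at day 13 and 53.8% at day 14.

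**Figure D1:**
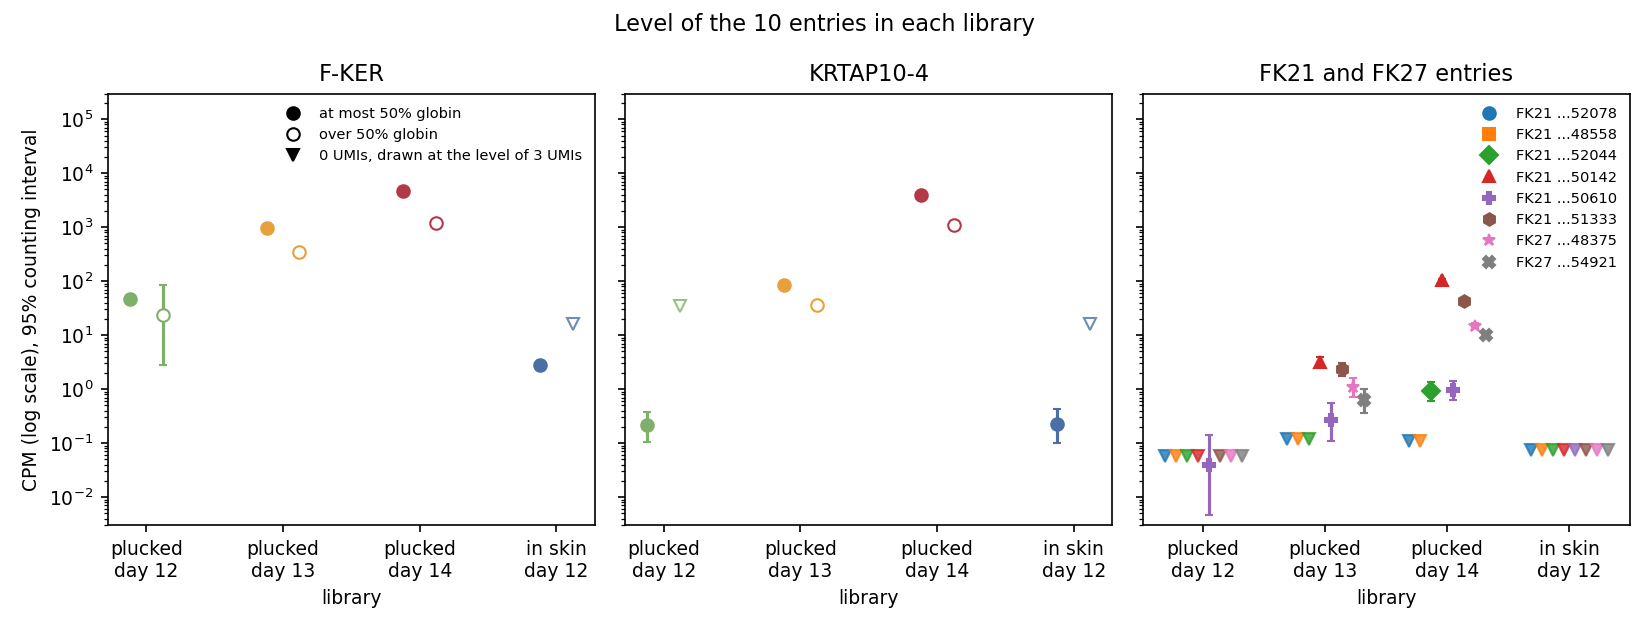
Level of each entry (CPM, log scale) by library, for F-KER, KRTAP10-4 and the 8 FK21 and FK27 entries, which are marked by the last digits of their identifier. Filled symbols are barcodes with at most 50% globin, open symbols those with over 50% globin, bars are 95% Poisson intervals and downward triangles mark 0 UMIs, drawn at the level of 3 UMIs. F-KER and KRTAP10-4 lie at 4726 and 3877 CPM at day 14, and at 47.5 and 0.214 CPM in plucked feathers at day 12.

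Between days 14 and 13, both nuclei, KRTAP10-4 differed most. Its level was 44.7-fold higher at day 14 than at day 13 (42.6 to 46.9), a log2 ratio of 5.33 with 10 CPM added to both levels (5.27 to 5.39), and that was rank 1 of 4339 genes with at least 50 CPM in either library. F-KER was 4.87-fold higher at day 14 (4.78 to 4.96), a log2 ratio of 2.27 (2.25 to 2.30) and rank 26. FK21 ENSGALG00000050142 was 32.6-fold higher at day 14 (25.3 to 42.5), a log2 ratio of 3.11 and rank 12. These 3 of the 10 entries passed the minimum of 50 CPM, FK21 ENSGALG00000050142 through day 14 alone, and all 3 were at least 2-fold higher at day 14. Of all 4339 genes, 111 were at least 2-fold higher at day 14 (2.56%) and 121 at least 2-fold lower (2.79%), and the median log2 ratio was -0.211. With TMM scaling, which moved the median by 0.258, the counts were 187 higher and 47 lower, and the log2 ratios were 5.60 for KRTAP10-4 and 2.56 for F-KER. Among the entries below the minimum, FK21 ENSGALG00000051333 was 18.4-fold higher at day 14 (13.5 to 25.6), FK27 ENSGALG00000048375 13.8-fold (8.62 to 22.8) and FK27 ENSGALG00000054921 16.2-fold (8.85 to 31.9). FK21 ENSGALG00000050610 was 3.48-fold higher at day 14, with an interval of 1.10 to 12.7. The intervals of the 3 better-covered entries below the minimum overlap one another and all lie above that of F-KER. Fewer nuclei with a transcript and less of it per nucleus cannot be told apart in these summed levels, and the values per barcode are given below.

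At day 12, F-KER separated plucked feathers from feathers in skin. The 47.5 CPM of plucked feathers were 17.2-fold the 2.76 CPM of feathers in skin (13.7 to 21.8). With 10 CPM added to both levels, which shrinks the difference, the log2 ratio was 2.17 (2.06 to 2.28). Of the 111 F-KER UMIs in skin, 44 came from 1 barcode, and the level without it was 1.67 CPM. Without the barcode with the most F-KER UMIs in each library, the levels were 45.45 CPM in plucked feathers and 1.67 CPM in skin. The log2 ratio, again with 10 CPM added, was then 2.25. KRTAP10-4 had 11 UMIs in plucked feathers against 9 in skin, or 0.956-fold with a counting interval of 0.251 to 3.74, so no difference was detectable at this depth. Its log2 ratio of 0.00 (-0.05 to 0.04) shows little, because the added 10 CPM far exceed both levels. No entry reached 50 CPM in either 12-day library, and among the 3559 genes that did, 595 were at least 2-fold higher in plucked feathers (16.7%) and 184 at least 2-fold lower (5.17%). The cell make-up differed as well: the summed level of the 14 keratinocyte markers was 8012 CPM in plucked feathers against 4896 CPM in skin, and that of the 13 fibroblast markers 1618 CPM against 9319 CPM, with none of either list at 0. Their part in the F-KER difference was not tested. With at most 5% mitochondrial UMIs allowed, F-KER was at 84.0 CPM in plucked feathers (2903 cells) and 1.41 CPM in skin (2021 cells), a log2 ratio of 3.04.

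Per barcode, F-KER was at 0 in most cells at day 12 and spread over most nuclei at day 14. In barcodes with at most 50% globin, the share with a F-KER UMI was 7.92% at day 12 (482 cells), 39.6% at day 13 (5169 nuclei) and 73.9% at day 14 (10009 nuclei), and 0.628% in skin (33 cells). In barcodes with over 50% globin the share was 1.68% at day 12 (2 barcodes), 25.9% at day 13 and 53.6% at day 14, and 0 of 154 in skin, which allows a share of up to 2.37% by the exact Clopper-Pearson interval. Median UMIs other than globin and mitochondrial ones were 1108 in barcodes with at most 50% globin against 1131 in globin-rich ones at day 14, and 851.5 against 1146 at day 13. A single F-KER UMI in a nucleus of day 13 or 14 was therefore read as no sign of expression by that nucleus. Barcodes with at least 10 F-KER UMIs numbered 58 at day 12, 414 at day 13 and 2567 at day 14, and 2 in skin.

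As a share of a barcode's UMIs other than globin and mitochondrial ones, F-KER had a median of 0% at days 12 and 13 and 0.140% at day 14. Its 99th percentile was 0.0906% at day 12, 1.18% at day 13 and 3.13% at day 14, and 0% in skin. The highest share in any barcode was 0.771% at day 12, 4.77% at day 13, 8.54% at day 14 and 0.835% in skin. Barcodes in which F-KER took over 1% numbered 0 at day 12, 220 at day 13 (1.69%) and 1766 at day 14 (13.0%). Among barcodes with over 50% globin, 3 (0.0467%) passed 1% at day 13 and 47 (0.798%) at day 14. The upper end of the distribution thus differed more from the globin-rich barcodes than the share of positives did.

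F-KER UMIs were more concentrated in few barcodes on the earlier days. The 1% of barcodes with the most F-KER held 58.2% of its UMIs at day 12, 41.5% at day 13 and 27.5% at day 14. At day 13 a single barcode with 93621 UMIs in all held 2695 of the 24912 F-KER UMIs (10.8%), and the library's level without it was 869 CPM. Without the top barcode of each library, the log2 ratio of day 14 over day 13 was 2.42.

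KRTAP10-4 per barcode was nearly absent at day 12 and came close to F-KER at day 14. It was detected in 8 cells at day 12 (0.131%), 1196 nuclei at day 13 (9.17%) and 9447 nuclei at day 14 (69.8%), and in 6 cells in skin (0.114%). Among barcodes with over 50% globin it was detected in 0 of 119 at day 12, 3.52% at day 13, 51.0% at day 14 and 0 of 154 in skin. The 99th percentile of its share was 0% at day 12, 0.240% at day 13 and 2.98% at day 14. Barcodes with over 1% KRTAP10-4 numbered 0 at day 12, 5 at day 13 and 1392 at day 14 (10.3%), and the highest share was 13.0%, in a nucleus of day 14. That maximum was above the highest F-KER share, although F-KER had the higher level in the library.

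**Figure D2:**
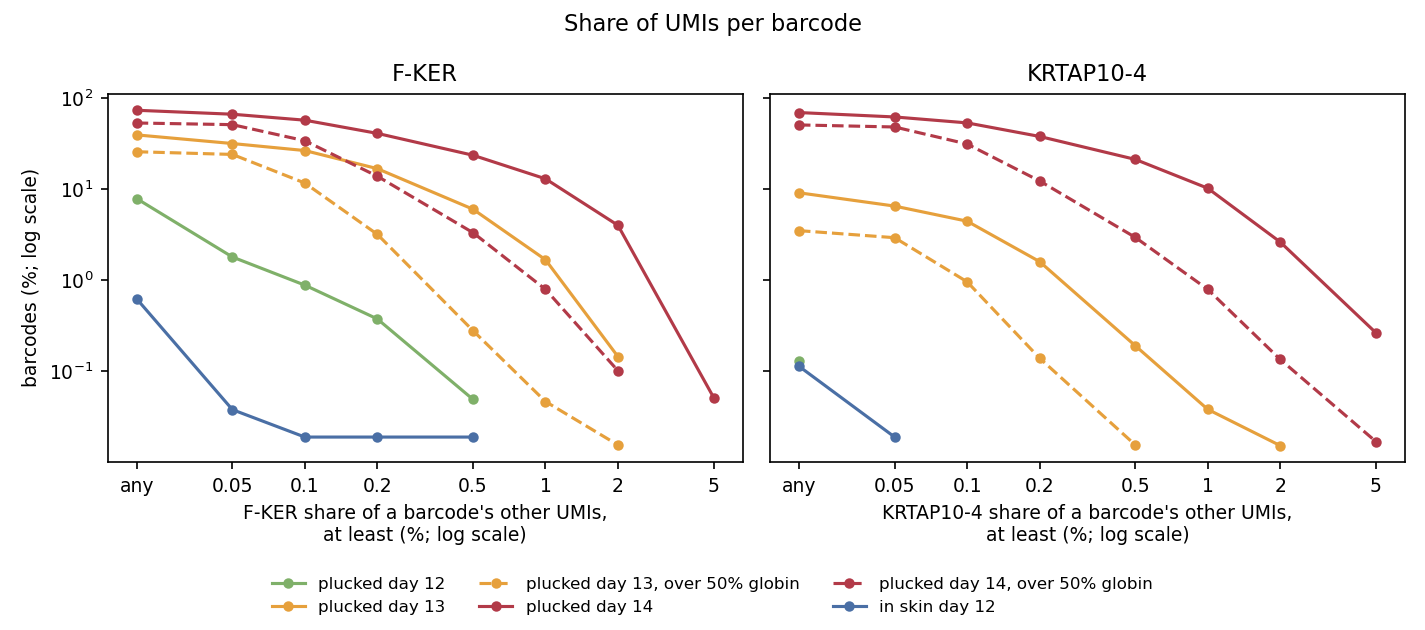
Percent of barcodes (log scale) in which F-KER (left) or KRTAP10-4 (right) took at least the share of other UMIs given on the log-scaled axis, with "any" for at least 1 UMI. Solid lines are barcodes with at most 50% globin in each library and dashed lines those with over 50% globin at days 13 and 14. At a share of 1%, F-KER stands at 13.0% of day-14 and 1.69% of day-13 barcodes, against 0.798% and 0.0467% of globin-rich ones.

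The level in globin-rich barcodes was a sizeable part of the level elsewhere. F-KER was not spread evenly over them. At day 14, 137 of them held at least 10 F-KER UMIs, and the 1% with the most held 23.5% of its UMIs. At day 13 these values were 22 barcodes and 24.1%. Also at day 13, 115 of the globin-rich barcodes fell in an unnamed cluster with F-KER among its leading genes. Whether all F-KER UMIs in globin-rich barcodes are free RNA was not tested. F-KER was at 341 CPM in barcodes with over 50% globin at day 13 (328 to 354) and 1175 CPM at day 14 (1151 to 1200), which is 35.1% and 24.9% of the levels below 50% globin. KRTAP10-4 was at 35.7 CPM at day 13 (31.7 to 40.0) and 1097 CPM at day 14 (1074 to 1121), or 41.1% and 28.3%. At day 12 the background was 2 F-KER UMIs in 119 plucked barcodes (23.2 CPM, 2.80 to 83.6), which overlaps the level of the other cells, and 0 UMIs in skin, with an upper limit of 19.6 CPM. F-KER UMIs per KRTAP10-4 UMI in globin-rich barcodes were 9.54 at day 13 and 1.07 at day 14, against 11.2 and 1.22 in the other barcodes of the same libraries. The pair therefore stood in nearly the same ratio in both kinds of barcode within a library, while it differed between the days.

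Just below the 50% limit, in barcodes with 30 to 50% globin, the F-KER level was 2226 CPM at day 14 and 614 CPM at day 13. Just above it, with 50 to 70% globin, the level was 1432 CPM at day 14 and 464 CPM at day 13. With over 80% globin it was 758 CPM at day 14 and 242 CPM at day 13, and in the 29 barcodes of day 14 with over 90% globin it was 586 CPM. KRTAP10-4 was likewise lower with more globin at day 14, with 687 CPM over 80% globin and 549 CPM over 90%. The background level thus depended on how strictly globin-rich barcodes were defined. The FK21 entry ENSGALG00000050142 was at 23.2 CPM in globin-rich barcodes at day 14 and 0.734 CPM at day 13, against 104 and 3.20 CPM in the others.

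Joint counts show which barcodes held both genes. At day 12, 482 plucked cells held F-KER and 8 held KRTAP10-4, and no cell held both, which allows at most 0.762% of the F-KER cells and 36.9% of the KRTAP10-4 cells. In skin 33 cells held F-KER, 6 held KRTAP10-4 and none held both. At day 13, 5169 nuclei held F-KER, 1196 held KRTAP10-4 and 916 held both. At day 14, 10009 nuclei held F-KER, 9447 held KRTAP10-4 and 7743 held both. With 8 and 6 KRTAP10-4 cells at day 12, these counts show no more than that F-KER was detected in more cells.

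To set days side by side at 1 depth, each barcode was thinned to 500 UMIs other than globin and mitochondrial ones, which left out 60 shallower barcodes at day 12, 2697 at day 13, 870 at day 14 and 12 in skin. At day 13, 2702 of 10341 nuclei (26.1%) then held F-KER, 535 (5.17%) KRTAP10-4 and 326 both. At day 14, 6957 of 12672 nuclei (54.9%) held F-KER, 6432 (50.8%) KRTAP10-4 and 4780 both. At day 12, 85 of 6029 cells held F-KER, 1 held KRTAP10-4 and none both. The share of KRTAP10-4-positive nuclei that held F-KER was 74.3% at day 14 (73.2 to 75.4) and 60.9% at day 13 (56.7 to 65.1). The share of F-KER-positive nuclei that held KRTAP10-4 was 68.7% at day 14 (67.6 to 69.8) and 12.1% at day 13 (10.9 to 13.3). The ratio of these shares is by construction the ratio of F-KER-positive to KRTAP10-4-positive nuclei. Their difference at day 13 therefore repeats that F-KER was detected more often, and at 1 UMI it may also count free RNA.

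The same shares were lower in globin-rich barcodes, with the same imbalance at day 13. Detection itself was also lower there. After thinning, F-KER was in 31.9% of globin-rich barcodes at day 14 and 13.4% at day 13, and KRTAP10-4 in 29.9% and 1.57%. The lower shares are therefore to be read beside this lower detection. Thinned alike, F-KER was held by 41.8% of KRTAP10-4-positive globin-rich barcodes at day 14 and 29.0% at day 13, and KRTAP10-4 by 39.1% of F-KER-positive ones at day 14 and 3.40% at day 13. A stricter count took as positive only barcodes above the 99th percentile of globin-rich ones, which was 5 UMIs of either gene at day 14, and 2 F-KER UMIs or 1 KRTAP10-4 UMI at day 13. At day 14 this left 1568 nuclei with F-KER (12.4%), 1219 with KRTAP10-4 (9.62%) and 708 with both, so that 58.1% of the KRTAP10-4 nuclei were above the F-KER limit and 45.2% the other way round. At day 13 it left 732 nuclei with F-KER (7.08%), 92 with KRTAP10-4 (0.890%) and 33 with both, or 35.9% (26.1 to 46.5) and 4.51%. These shares depend on the limits, which differ between genes and days. A nucleus of day 13 with 2 F-KER UMIs did not count as positive. The 35.9% therefore does not show KRTAP10-4 nuclei without F-KER. Among all thinned nuclei, 7.08% at day 13 and 12.4% at day 14 were above the F-KER limit.

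The share of nuclei with one gene differed with the count of the other. At day 14, KRTAP10-4 was found in 28.9% of thinned nuclei with no F-KER UMI, 44.1% with 1, 73.3% with 2 to 4, 94.7% with 5 to 9 and 97.9% with 10 to 19. At day 13, it was found in 2.74% with no F-KER UMI, 6.74% with 1, 16.03% with 2 to 4 and 27.6% with 5 to 9, and in 15.2% of the 33 nuclei with 10 to 19 (5.11 to 31.9). In each of these 5 classes the share was lower at day 13, and the class of day 13 with 10 to 19 F-KER UMIs, of few nuclei, was below the one with 5 to 9. Conversely, F-KER was found at day 14 in 34.9% of nuclei with no KRTAP10-4 UMI, 54.1% with 1 and 80.2% with 2 to 4, and at day 13 in 24.2%, 58.9% and 71.3% of the same classes.

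**Figure D3:**
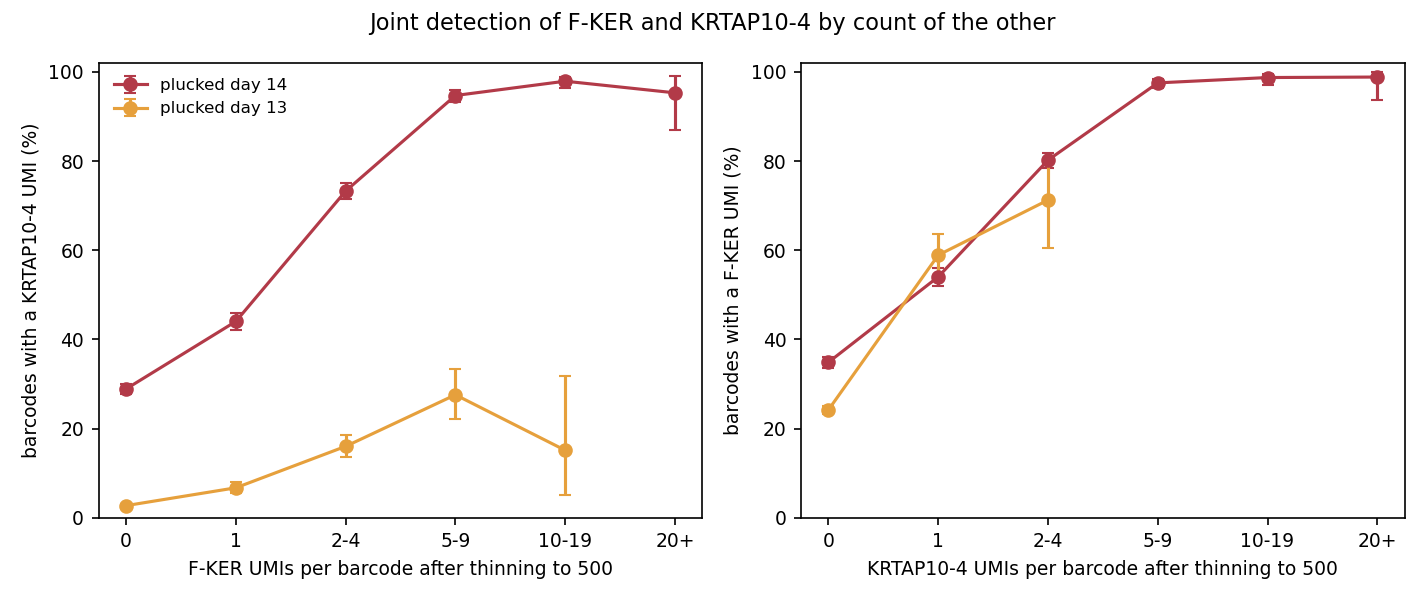
Percent of thinned nuclei with a KRTAP10-4 UMI by F-KER count (left) and with a F-KER UMI by KRTAP10-4 count (right), at days 14 and 13, with exact 95% Clopper-Pearson intervals. Classes with under 20 nuclei are not drawn. At 5 to 9 F-KER UMIs, KRTAP10-4 was found in 94.7% of nuclei at day 14 and 27.6% at day 13.

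The balance was also read within single barcodes. Among barcodes with at least 10 UMIs of the pair, not thinned, the median share of KRTAP10-4 was 0% of the pair at day 12, where all 58 cells held only F-KER. It was 6.52% at day 13 (475 nuclei, 10th to 90th percentile 0 to 22.5%) and 45.0% at day 14 (3792 nuclei, 21.4 to 70.6%). Nuclei with no KRTAP10-4 UMI were 31.4% of this class at day 13 and 0.396% at day 14. At a median share of 6.52%, a nucleus of day 13 with few UMIs of the pair can show no KRTAP10-4 by sampling alone. The 31.4% therefore does not show a set of nuclei that lack KRTAP10-4, and the share that sampling would give was not computed. The same limit applies to the 58 cells of day 12. At day 14, 96.9% of these nuclei held between 10% and 90% KRTAP10-4, against 33.5% at day 13. Nuclei with over 90% KRTAP10-4 numbered 32 at day 14 and 4 at day 13.

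**Figure D4:**
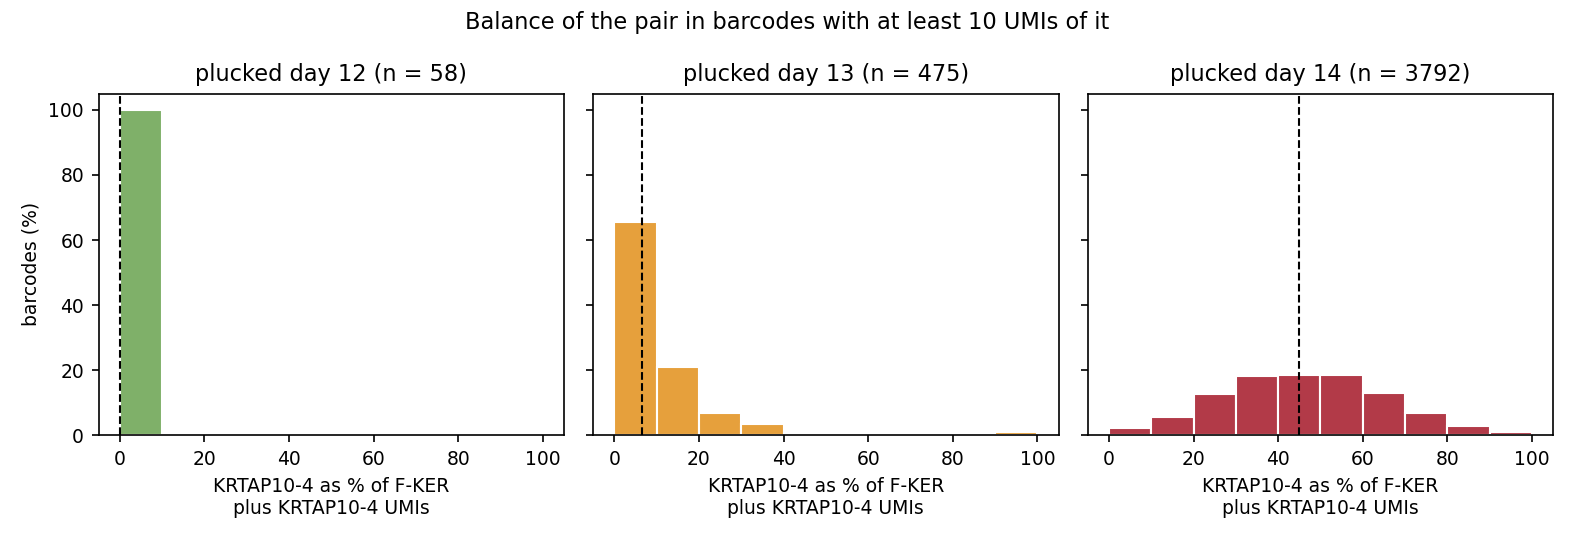
Distribution over barcodes of KRTAP10-4 as a percent of F-KER plus KRTAP10-4 UMIs, in barcodes with at least 10 UMIs of the pair and at most 50% globin, for plucked feathers at days 12, 13 and 14. Dashed lines are medians, at 0%, 6.52% and 45.0%.

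The FK21 and FK27 entries lay almost wholly in nuclei that held both genes at day 14, which were 7743 of 13542 nuclei. Of the 2851 UMIs of FK21 ENSGALG00000050142, 2691 (94.4%) were in the 7743 nuclei with both, where its level was 141 CPM. In nuclei with F-KER alone its level was 20.7 CPM, with KRTAP10-4 alone 20.2 CPM, and with neither 16.4 CPM. For the other FK21 and FK27 entries detected at day 14, between 95.7% and 96.8% of UMIs were in nuclei with both. At day 13, 48.8% of the UMIs of FK21 ENSGALG00000050142 were in nuclei with both and 41.5% in nuclei with F-KER alone, and none of its 82 UMIs was in a nucleus with KRTAP10-4 alone. No entry of FK21 or FK27 had a UMI in the 280 nuclei of day 13 that held KRTAP10-4 alone. These nuclei are too few for this to show absence. In the 7589 nuclei with neither gene, FK21 ENSGALG00000050142 had 8 UMIs. A barcode needs a UMI of each gene to count as holding both, so deeper barcodes enter that class more readily. The shares of UMIs are therefore to be read beside the levels in CPM.

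Each library was clustered on its own without the member genes, and clusters were named from marker lists. The naming was not free of the members. Clusters led by F-KER, KRTAP10-4 or epidermal differentiation genes could be refused any name but keratinocyte-like, so the ranking of classes is partly set by the naming. At day 13 an unnamed cluster of 182 barcodes with F-KER among its leading genes was at 3021 CPM. Of these barcodes, 115 had over 50% globin and so were also part of the globin-rich background. The clusters were made from the same nuclei and are used here as a description. F-KER in the keratinocyte-like class was at 54.7 CPM at day 12 (97.3% of its UMIs in kept barcodes), 1409 CPM at day 13 (72.7%) and 5359 CPM at day 14 (78.8%), the highest of the classes at each plucked age. The day-12 ranking depended on the clustering: at Leiden resolution 0.5 the keratinocyte-like class was at 21.1 CPM (27.9% of the UMIs), below unnamed clusters at 121 CPM (70.9%) and erythroid-like ones at 36.3 CPM. Erythroid-like clusters were at 36.3 CPM at day 12 (7 UMIs), 279 CPM at day 13 and 1712 CPM at day 14. At day 14 a single erythroid-like cluster of 899 barcodes, at 5341 CPM, held 8318 of the 17727 F-KER UMIs of that class, while its 3 lowest clusters were at 838 to 1051 CPM. Fibroblast-like clusters were at 4.47, 336 and 2028 CPM at days 12, 13 and 14, and endothelial-like clusters at 21.3 (8 UMIs), 484 and 4127 CPM. KRTAP10-4 in the keratinocyte-like class was 0.253 CPM at day 12, 125 CPM at day 13 and 4349 CPM at day 14. In skin, keratinocyte-like clusters held 6 of the 111 F-KER UMIs and an unnamed cluster of 295 cells held 96. Its 10 leading genes included the neural marker TUBB3, which kept it unnamed, the water channel gene AQP3, and ENSGALG00000028843 and ENSGALG00000038424, which are among the 10 genes most like F-KER given below. At resolution 0.5, 98.2% of the F-KER UMIs in skin were in keratinocyte-like clusters.

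Within the keratinocyte-like class of plucked feathers, 1 cluster of each library held over 50% of all F-KER UMIs in kept barcodes. At day 14 it was a cluster of 2423 nuclei with 16410 CPM F-KER and 13400 CPM KRTAP10-4, which held 52.8% and 52.1% of their UMIs. At day 13 it was a cluster of 1670 nuclei with 7427 CPM F-KER and 585 CPM KRTAP10-4, with 58.0% and 50.2% of their UMIs. Between these clusters F-KER was 2.21-fold higher at day 14 (2.16 to 2.26) and KRTAP10-4 22.9-fold higher (21.5 to 24.4). The day-13 cluster included the single barcode with 2695 F-KER UMIs, of 16052 in the cluster. Its F-KER level and fold therefore depend in part on 1 barcode, which the counting interval does not cover. They were not computed without that barcode. KRTAP10-4 in the day-13 cluster was at 589 CPM without it. In thinned nuclei of these clusters, F-KER was found in 96.1% at day 14 and 81.6% at day 13, and KRTAP10-4 in 94.96% at day 14 and 19.3% at day 13. At day 12 a cluster of 321 cells with F-KER among its leading genes held 64.4% of the F-KER UMIs at 314 CPM and no KRTAP10-4. A second cluster of day 12, of 164 cells and with KRT6A among its leading genes, held a further 22.3% at 261 CPM, again with no KRTAP10-4.

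The 11 KRTAP10-4 UMIs of day 12 lay outside those F-KER-rich cells. The 2 F-KER-rich clusters held only 321 and 164 of the 6208 kept barcodes. With 11 UMIs in all, finding none there shows little. A cluster with MSLN, the gene of mesothelin, among its leading genes held 5, a cluster with SHH, the gene of sonic hedgehog, as its leading gene held 4, and 2 further clusters held 1 each. With 4 of the 5 UMIs of the MSLN cluster in 1 barcode, these counts are too few to rank clusters.

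At days 13 and 14 the clusters were read against the globin-rich level of their library. F-KER exceeded it, interval against interval, in 12 of 13 keratinocyte-like clusters at day 14 and 4 of 8 at day 13, and also in 8 of 11 other or unnamed clusters at day 14 and 4 of 13 at day 13. The 3 other clusters of day 14 not above it were erythroid-like, at 838 to 1051 CPM and with 55.2 to 80.5% globin. Such clusters share barcodes with the globin-rich level, so these counts do not contrast keratinocyte-like clusters with other cell types. KRTAP10-4 exceeded it in 9 of 13 keratinocyte-like clusters at day 14 and 4 of 8 at day 13, and in 7 of 11 others at day 14 and 3 of 13 at day 13. F-KER per KRTAP10-4 over clusters had a median of 1.22 at day 14 (0.853 to 2.29) and 10.1 at day 13 (2.90 to 14.1). At day 13 a keratinocyte-like cluster of 316 nuclei with KRT18 among its leading genes stood at 2.90 (2.00 to 4.26), with 316 CPM F-KER (274 to 362), which overlaps the globin-rich level of 341 CPM, and 109 CPM KRTAP10-4, above the globin-rich 35.7 CPM. A keratinocyte-like cluster of 535 nuclei with UNC93A among its leading genes stood at 4.67, with 398 CPM F-KER and 85.3 CPM KRTAP10-4. Without the barcode with the most KRTAP10-4, these clusters were at 96.9 and 77.9 CPM KRTAP10-4. Both were singled out after their values were seen.

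**Figure D5:**
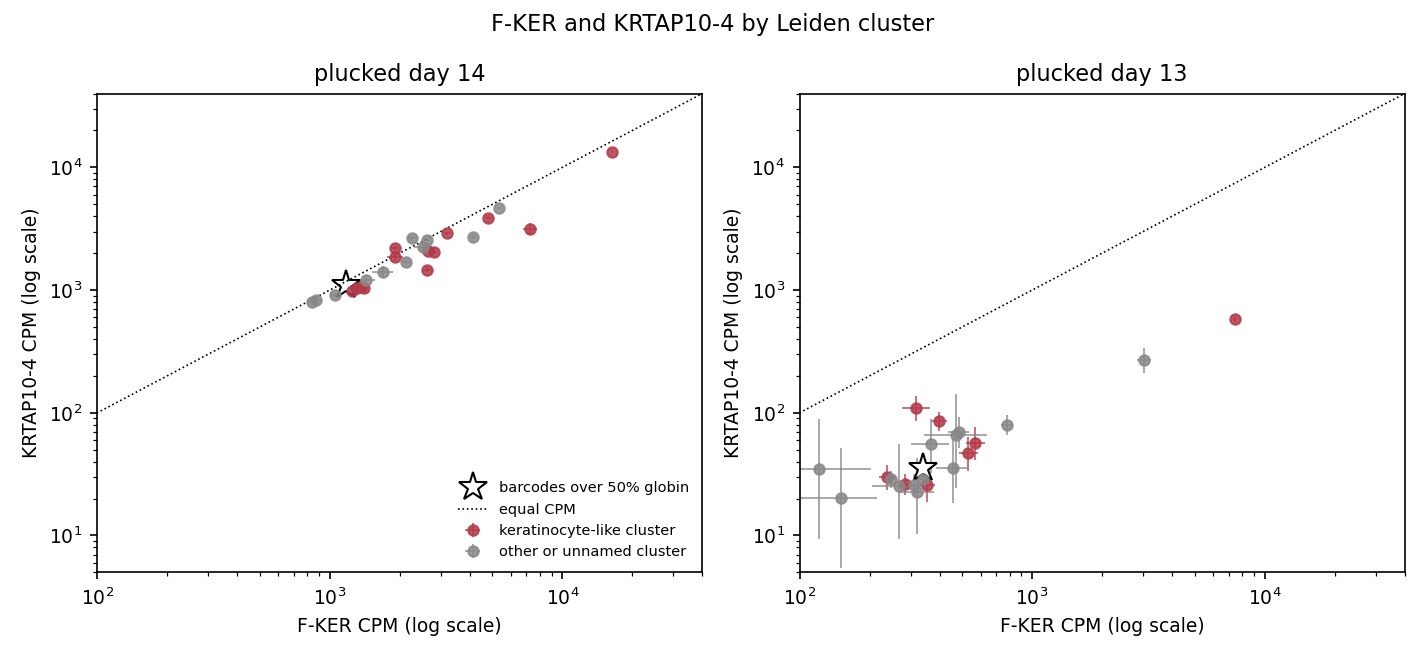
F-KER against KRTAP10-4 level (CPM, both log scales) in each Leiden cluster at days 14 and 13, with 95% Poisson intervals. Red points are keratinocyte-like clusters, grey points other or unnamed ones, the star is the level in barcodes with over 50% globin, and the dotted line marks equal levels. Clusters lie near the line at day 14 (median ratio 1.22) and below it at day 13 (median ratio 10.1).

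Across nuclei with at most 50% globin, log levels of F-KER and KRTAP10-4 correlated with Pearson r of 0.60 at day 14 (13542 nuclei) and 0.29 at day 13 (13038 nuclei), a description of points that share library and depth. The 10 genes most like F-KER, by the lower of both days' r among 4921 genes detected in at least 5% of nuclei on both days, all lack a symbol in the deposited tables. Their r ranged from 0.594 to 0.690 at day 14 and from 0.469 to 0.539 at day 13, the latter being the lower r of each. By that lower r, the median of all these genes was -0.055 and the 95th percentile was 0.052. The highest by the lower r, ENSGALG00000039987, was at 8582 CPM at day 14 and 1874 CPM at day 13. The 10 genes most like KRTAP10-4 included F-KER and EDQM3, an epidermal differentiation complex gene (r of 0.457 at day 14 and 0.308 at day 13).

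Other genes of the cornifying epidermis were called past 2-fold in both directions between the nuclear libraries. Of 42 listed epidermal differentiation complex symbols 12 were found and 6 passed 50 CPM, of which 3 were at least 2-fold higher at day 14 and none lower. All 3 passed the minimum through day 14 alone, so this count is not set against the share of all genes. EDMPN2, the neighbour of KRTAP10-4, was at 266 CPM at day 14 against 4.21 CPM at day 13, a log2 ratio of 4.28, and had 0 UMIs in both 12-day libraries. The others, named after their values were seen, were EDMTFH with 218 CPM at day 14 against 46.7 CPM at day 13 and EDSC with 108 CPM against 47.3 CPM. EDQM3 did not pass 2-fold, with 781 CPM at day 14 against 466 CPM at day 13. Of 7 alpha-keratins past the minimum, none was 2-fold higher at day 14 and 2 were 2-fold lower, KRT17 (132 CPM against 288 CPM) and KRT5 (64.6 CPM against 141 CPM), filament keratins of the basal and follicular epithelium. KRT14, another basal keratin, was at 112 CPM at day 14 against 204 CPM at day 13. None of 8 cornified envelope, junction and barrier entries passed 2-fold in either direction; ABCA12, a lipid transporter of the skin barrier, was at 876 CPM at day 14 against 718 CPM at day 13. Of 21 epidermal transcription factors, none was 2-fold higher and 2 were 2-fold lower at day 14, LEF1 (128 CPM against 272 CPM, also named after its values were seen) and BCL11B (488 CPM against 1342 CPM). Of all 4339 genes, 2.56% were at least 2-fold higher at day 14 and 2.79% at least 2-fold lower. Beside these shares, the counts of the short alpha-keratin, cornified envelope and transcription factor lists show little about the lists. Cell-type marker sums also differed between these libraries, with 2285 CPM at day 14 against 3375 CPM at day 13 for the 14 keratinocyte markers (1 at 0 at day 14), 1139 CPM against 1925 CPM for the 13 fibroblast markers and 978 CPM against 529 CPM for 3 erythroid markers other than globin. The 7 markers of cycling cells summed to 125 CPM at day 14 against 318 CPM at day 13, and the part of these differences in the list counts was not tested. The list medians on the log2 scale were 0.89 for the epidermal differentiation complex, -0.38 for alpha-keratins, -0.09 for the cornified envelope list and -0.57 for the transcription factors, beside -0.211 for all genes. TMM scaling moved the median of all genes by 0.258, and the lists were not counted again with it. Calls near the 2-fold limit may therefore change with the scaling. KRT17 and KRT5 were near it, with log2 ratios of -1.07 and -1.02, as was LEF1. FOSL2, not called, was at 0.848, whereas BCL11B was at -1.44. The list of other beta-keratin symbols held only BKJ, which had at most 3 UMIs in any library.

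At day 12, the same lists were compared between plucked feathers and feathers in skin, where 16.7% of all genes were 2-fold higher and 5.17% lower in plucked feathers. Of 9 cornified envelope entries past the minimum, 8 were 2-fold higher in plucked feathers and none lower, among them PPL, a desmosomal plakin, with 610 CPM against 56.0 CPM in skin. Of 4 epidermal differentiation complex genes 2 were higher, CRNN (206 CPM against 28.7 CPM, past the minimum through plucked feathers alone) and EDQM3 (2298 CPM against 597 CPM). Of 8 alpha-keratins 1 was higher, KRT6A (178 CPM against 70.9 CPM), and 3 were lower, KRT13, KRT14 and KRT24, the last with 24.0 CPM against 162 CPM in skin. Of 19 transcription factors 6 were higher and 1, BARX2, was lower. Besides CRNN, other counted genes passed the minimum only through the library where they were higher. Examples are ABCA12 (443 CPM in plucked feathers against 31.5 CPM in skin), TFAP2C (87.9 CPM against 14.9 CPM) and, through skin, KRT24. These list counts are therefore not read against the shares of all genes. The keratinocyte and fibroblast marker sums differed between these libraries as given above.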

How the data were processed

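The authors deposited raw UMI counts per gene and barcode for 4 libraries. Per the file headers they were made with Cell Ranger 3.1.0 (both 12-day libraries) and 7.0.0 (days 13 and 14); the submitters' processing notes name Cell Ranger 7.0.0 and the build GRCg6a. Whether intronic reads were counted is not given in the sources used here. Gene names come from the deposited tables, which give no symbol for 4436 genes, and synonyms from RefSeq (GRCg7b, names and neighbours only). No sequence or coordinate was used.

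From these counts, levels were computed as CPM over UMIs other than 13 mitochondrial and 7 globin genes, with exact Poisson intervals for sums and Clopper-Pearson intervals for shares (95%, counting error only). With 1 library per group no test was made. A gene was called past 2-fold with 10 CPM added, among genes at 50 CPM or more in either library. Each library was clustered with the Leiden algorithm at resolution 1 (2000 variable genes, 30 components, 15 neighbours; scanpy 1.11.5, leidenalg 0.10.2, Python 3.11.15), leaving out the members and the listed genes, and named from marker lists, of which 14 of 18 keratinocyte markers were found. A cluster scored as another class but led by more epidermal differentiation genes, F-KER or KRTAP10-4 than by that class's markers stayed unnamed, a rule added after the clusters were seen. Scrublet marked 117, 2744 and 5759 barcodes at days 12, 13 and 14 (1.885%, 14.1% and 29.6%) and 50 in skin (0.924%). At day 13 the median was 2250 UMIs in marked and 2311 in unmarked barcodes. Marked ones were deeper at day 12 (10666 against 8488), at day 14 (2358 against 2054) and in skin (11833 against 6760). Its calls were taken as uncertain, and marked barcodes were left out only as an alternative. The ratio and likeness steps were tested on simulated counts. The members, the gene lists and the rule for named genes (all members, the most abundant and most changed genes of each list, the 10 genes most like F-KER and KRTAP10-4) were chosen with earlier results of these data known.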

Additional observations from a re-analysis of the deposited data

Results flagged for a closer look

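Barcodes left out by the filters also held the pair, above the 3 UMIs that a count of 0 allows. F-KER had 314 UMIs in left-out barcodes of plucked feathers at day 12, 2967 at day 13 and 17946 at day 14, and 12 in skin. KRTAP10-4 had 349 UMIs in them at day 13 and 17320 at day 14. At day 14 most came from 4435 barcodes with under 300 genes, in which F-KER was at 7569 CPM (7448 to 7691) and KRTAP10-4 at 7388 CPM, against 4726 and 3877 CPM in the kept barcodes with at most 50% globin; these left-out barcodes had a median of 599 UMIs. At day 13 the 743 barcodes with under 300 genes were at 806 CPM F-KER, against 971 CPM in the kept ones. At day 14, dropping the minimum of genes, an alternative added after seeing the data, gave log2 ratios over day 13 of 2.33 for F-KER and 5.42 for KRTAP10-4.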

How the results depend on the processing

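No paired analysis was possible because each group is 1 library. No alternative reversed the sign of a log2 ratio of F-KER or KRTAP10-4. For shares, levels and gene counts a reversal was not looked for. Which of the counts of genes higher and lower at day 14 was larger changed with TMM and at 4-fold. The ranking of classes at day 12 changed with the clustering, as given above. An alternative is given below where it left the main value's 95% counting interval, which is narrow, or moved a count by over 1.5 times. The log2 ratios of F-KER and KRTAP10-4, day 14 over day 13 (2.27 and 5.33), were 2.498 and 5.58 with at most 5% mitochondrial UMIs, 2.35 and 5.44 with at least 1000 UMIs, 2.40 and 5.51 with at most 20% globin, 2.56 and 5.60 with TMM, 1.90 and 4.78 as the mean of each barcode's own CPM, and 2.33 and 5.42 with no minimum of genes. F-KER alone was at 2.37 without Scrublet-marked barcodes, 2.31 scaled to all UMIs and 2.42 without the top barcode, and KRTAP10-4 at 5.46 with a pseudocount of 1 CPM. F-KER in plucked feathers over feathers in skin (2.17) was 3.04 with at most 5% mitochondrial UMIs, 2.02 with TMM, 3.69 with a pseudocount of 1 CPM and 1.85 by barcode means. The genes at least 2-fold higher and lower at day 14 (111 and 121) were 187 and 47 with TMM and 38 and 3 at 4-fold, and the lower ones 184 both with a pseudocount of 1 CPM and by barcode means.

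The share of KRTAP10-4-positive nuclei with F-KER at day 14 (74.3%) was 78.6% with at most 20% globin, 67.4% whatever the globin share, 71.2% without Scrublet-marked barcodes, 82.0% not thinned, 80.8% thinned to 1000, 76.5% with no minimum of genes and 58.1% above the globin-rich 99th percentile. At day 13 (60.9%) it was 68.8% with at most 5% mitochondrial UMIs, 67.5% with at least 1000 UMIs, 73.7% with at most 20% globin, 67.3% without Scrublet-marked barcodes, 76.6% not thinned, 75.3% thinned to 1000, 46.7% at 2 UMIs and 35.9% above the percentile. The share of F-KER-positive nuclei with KRTAP10-4 at day 14 (68.7%) was 71.7% with at most 20% globin, 62.8% whatever the globin share, 66.4% without Scrublet-marked barcodes, 77.4% not thinned, 76.1% thinned to 1000, 66.8% at 2 UMIs, 71.4% with no minimum of genes and 45.2% above the percentile. At day 13 (12.1%) it was 14.0% with at most 20% globin, 10.4% whatever the globin share, 17.7% not thinned, 17.3% thinned to 1000, 3.49% at 2 UMIs and 4.51% above the percentile. The cause of these moves was not tested.

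Over 80% globin, F-KER was at 758 CPM at day 14 and 242 CPM at day 13 and KRTAP10-4 at 687 and 28.1 CPM; over 90%, day 14 gave 586 and 549 CPM. Too few barcodes of day 13 passed 90%. Keratinocyte-like F-KER was at 21.1 CPM at day 12 (main 54.7), 5270 at day 14 (main 5359) and 4.54 in skin (main 0.286) at Leiden resolution 0.5, and 0.808 in skin at resolution 2. The depth of days 13 and 14 and their free RNA limit what 1 or 2 UMIs in a nucleus can show. The alternatives without a top barcode, without a minimum of genes and above the percentile were chosen after seeing the data.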
